A study of Homo sapiens with 2 samples.

Results

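The genes described here are those of the EGF receptor family and its ligands in MCF-10A, a long-established line of human breast epithelial cells that does not form tumours. They are the receptor genes EGFR, ERBB2 and ERBB3, the ligand genes AREG, EREG, HBEGF, TGFA, BTC and EGF, and ERRFI1, which encodes a feedback inhibitor of the receptors. They were chosen by name, as the family on whose signal the growth of MCF-10A depends; the rule uses no measured value, but it was written with earlier results of these data known. Of the 10 genes, 7 had a feature of their own in the array annotation, among 14812 named genes in all, and each of the 7 rested on 1 feature. ERBB2, AREG and TGFA were not analysed here.

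RNA was compared between 2 MCF-10A lines, with 1 array for each. The EGFP vector line stably expressed enhanced green fluorescent protein, and the EGFP-ARHGAP4 line stably expressed the same protein fused to ARHGAP4. The promoter that drove the transgenes, the culture medium and its EGF content, the passage, and whether either line was a clone or a pool were not given in the sources used here. Below, the arrays are called the vector array and the fusion array. With a single array per line there is no test and no error between cultures, and every statement below compares these 2 arrays alone.

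ErbB receptors are tyrosine kinases of the cell surface that pair when a ligand binds, phosphorylate each other, and pass the signal to the RAS to ERK and the PI3K to AKT cascades. The ligands are made as membrane-anchored precursors and are released by metalloproteases called sheddases, so a cell can stimulate itself and its neighbours. EGFR binds every ligand of the list, ERBB3 binds neuregulins and has little kinase activity of its own, and ERBB2 has no known ligand and acts as a partner of the others. MCF-10A cells are kept in medium with added EGF in common practice, and mammary epithelial cells also make several of these ligands themselves.

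The 5 genes whose higher value reached the level filter were EGFR, ERBB3, EREG, HBEGF and ERRFI1. The filter stands at a log2 value of 4.02, the median of all gene values, and 7685 genes passed it. ERRFI1 was the only 1 of the 5 to differ by at least 0.5 on the log2 scale (1.41-fold), and the fusion array held the higher value. Over all genes past the filter 5.15% were higher by at least 0.5 and 9.81% were lower by as much, 396 genes against 754. This balance holds for the values as deposited and turns with the scaling, to 554 higher and 514 lower after quantile normalization and 560 and 497 after loess. None of the 5 differed by 2-fold, against 1.80% of all genes past the filter. EREG was lower by 0.44, HBEGF and EGFR were higher by 0.24 and 0.16, and ERBB3 was the same in both arrays. The median difference of the 5 was 0.16, beside a median of -0.10 over all 7685 genes. With 5 genes, 1 call is a count too small to be read against the background shares.

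The promoters of 4 genes are shown because these are the genes with the most different values on either side: EREG and its neighbour EPGN (epigen, a further EGFR ligand that the list of 10 leaves out) were lower in the fusion array, while ERRFI1 and HBEGF were higher. Each line gives the 250 bases before the RefSeq start site, 5′ to 3′ on the strand of the gene, from GRCh38.p14. Capitals mark the matches to 2 of the motifs searched, the TATA box and the GC box; no other motif searched matched in these 4 windows.
EREG: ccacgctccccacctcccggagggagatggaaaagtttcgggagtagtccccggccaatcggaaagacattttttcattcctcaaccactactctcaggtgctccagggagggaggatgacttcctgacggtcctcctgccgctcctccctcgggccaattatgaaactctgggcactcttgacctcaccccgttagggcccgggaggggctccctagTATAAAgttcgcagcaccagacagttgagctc
EPGN: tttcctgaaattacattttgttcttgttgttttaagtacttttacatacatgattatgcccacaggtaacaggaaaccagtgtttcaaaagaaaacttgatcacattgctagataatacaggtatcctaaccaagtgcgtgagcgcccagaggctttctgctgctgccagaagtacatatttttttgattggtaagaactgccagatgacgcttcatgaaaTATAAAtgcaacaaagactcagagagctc
ERRFI1: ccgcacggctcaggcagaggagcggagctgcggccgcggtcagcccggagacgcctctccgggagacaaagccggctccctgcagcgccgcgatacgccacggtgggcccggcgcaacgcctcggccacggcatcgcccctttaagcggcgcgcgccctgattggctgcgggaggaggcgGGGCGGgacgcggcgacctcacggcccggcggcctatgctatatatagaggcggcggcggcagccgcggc
HBEGF: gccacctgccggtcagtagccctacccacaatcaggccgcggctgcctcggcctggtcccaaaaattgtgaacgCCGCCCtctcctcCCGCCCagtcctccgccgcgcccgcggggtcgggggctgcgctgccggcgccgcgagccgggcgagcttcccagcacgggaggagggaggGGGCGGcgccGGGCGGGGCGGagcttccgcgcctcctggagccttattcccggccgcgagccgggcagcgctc

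These windows lie at chr4:74364895-74365144 on the plus strand for EREG, chr4:74308220-74308469 on the plus strand for EPGN, chr1:8026310-8026559 on the minus strand for ERRFI1 and chr5:140346604-140346853 on the minus strand for HBEGF. The motifs searched, on both strands, were the TATA box with the letters TATAAA, the AP-1 site with TGANTCA, the CRE with TGACGTCA, the GC box with GGGCGG, and the CArG box, the serum response factor motif, by its name alone. EREG held TATAAA from 32 to 27 bases before the start and EPGN from 29 to 24 bases before it, and neither held a GC box. ERRFI1 held 1 GC box and no TATAAA, and HBEGF held 5 GC boxes, 2 of which share a base, and no TATAAA. The search took the exact letters TATAAA alone, and the ERRFI1 window holds tatatata near its end, which was not counted. A window without TATAAA is therefore not a window without any TATA-like sequence. Over 35116 RefSeq promoters of the same length, 10.7% held TATAAA anywhere and 2.30% held it in the gene's direction starting 20 to 40 bases before the start, while 42.6% held a GC box. The share of G and C was 58.0% in EREG, 38.0% in EPGN, 75.2% in ERRFI1 and 76.4% in HBEGF, against a median of 58.0% over all promoters. These are matches of letters in a fixed window, chosen for display after the values were known. The 6 measured genes with a RefSeq promoter here were EGFR, EREG, HBEGF, BTC, EGF and ERRFI1. EGFR has 2 listed start sites: the first window held 2 GC boxes, and the second held 2 AP-1 matches and 2 TATAAA matches. The EGF window held 1 AP-1 match, 17 to 11 bases before the start, and the BTC window held none of the motifs.

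**Figure D1:**
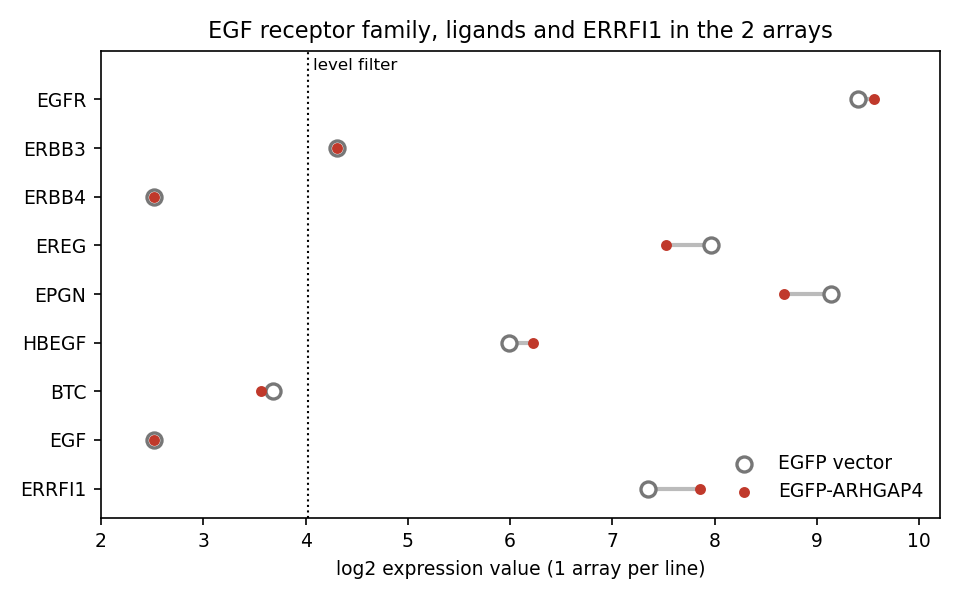
Log2 expression value of each family gene in the vector array (open circles) and the fusion array (filled circles), with 1 array per line and a dotted line at the level filter of 4.02. EREG and EPGN lie lower and ERRFI1 and HBEGF higher in the fusion array, the circles of ERBB3, ERBB4 and EGF coincide, and values are compared only within a gene, since features differ in their response.

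EGFR, the receptor of EGF, had a log2 value of 9.40 in the vector array and 9.56 in the fusion array. The difference of 0.16, or 1.12-fold, was smaller than 0.21, the pooled SD of the difference between features of the same gene among the 336 genes past the filter with several features. That SD describes how far the features of a gene scatter around their mean difference on these arrays. It is smaller than the typical distance between 2 features, and it does not measure how far 2 cultures would differ. Some of these genes, such as IER3, have several features with identical values, which lowers it. Of the genes past the filter, 20.3% had a higher difference than EGFR. The sign of the EGFR difference was kept under all 4 alternatives of scaling and feature choice, which placed it between 0.16 and 0.29.

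ERBB3, the receptor that carries the neuregulin signal to PI3K, had a value of 4.30 in both arrays, equal to the last digit deposited. This value lies just above the filter. Identical values were found in 1.93% of genes past the filter and in 9.33% of genes below it, and the sources used here do not say how they arose. An equal pair of this kind gives no measure of how closely ERBB3 RNA matched between the lines. ERBB4, the fourth receptor of the family and outside the list of 10, was likewise equal in both arrays, at 2.51, below the filter.

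Among the ligands, EREG encodes epiregulin, which binds EGFR and ERBB4. Its value was 7.96 in the vector array and 7.52 in the fusion array. It was thus 1.35-fold lower with EGFP-ARHGAP4, a difference of -0.44, short of the 0.5 used for calls, and 13.1% of genes past the filter had a lower difference. Under other scalings the EREG difference lay between -0.40 and -0.30, nearer to 0 than as deposited.

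HBEGF encodes heparin-binding EGF-like growth factor, an EGFR and ERBB4 ligand that is induced by many stimuli. It stood at 5.99 in the vector array and at 6.22 in the fusion array. The difference of 0.24, or 1.18-fold higher, was slightly above the SD between features of a gene, and 14.8% of genes past the filter had a higher one. It ranged up to 0.35 under the other scalings. EREG and HBEGF therefore differed in opposite directions between the same 2 arrays.

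BTC, betacellulin, stood at 3.69 in the vector array and 3.56 in the fusion array, and EGF itself at 2.52 in both. Both lie below the filter, where differences narrow towards background, so neither value is read as a level of expression or as evidence of no change. The EGF values, like those of ERBB3, were equal to the last digit.

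ERRFI1 encodes MIG6, which is transcribed in response to ERK signalling, binds the kinase domain of ErbB receptors and dampens them. Its value was 7.35 in the vector array and 7.86 in the fusion array. At 0.51, or 1.42-fold higher, it had the largest difference of the 7 measured genes, and 381 of the 7685 genes past the filter (4.96%) had a higher one. The value lies just inside the threshold of 0.5. It stayed above that under quantile normalization, centring and loess, between 0.54 and 0.64. At a threshold of 1.5-fold, however, no gene of the list was called as deposited. The genes nearest to ERRFI1 in their pair of values were RNF144B at 7.36 and 7.88, GAS6 at 7.34 and 7.90 and TSPAN14 at 7.35 and 7.92. Likeness here is the Euclidean distance over 2 arrays, between 0.024 and 0.065 for these genes, and it describes no more than 2 similar numbers.

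**Figure D2:**
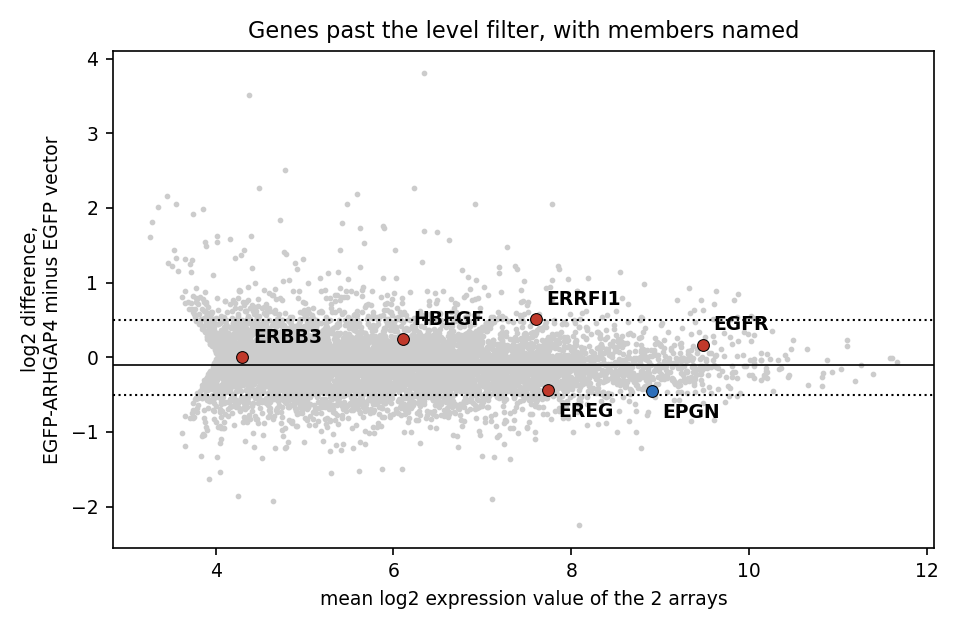
Log2 difference (EGFP-ARHGAP4 minus EGFP vector) against the mean log2 expression value for the 7685 genes past the level filter (grey), with the 5 measured genes of the list in red and EPGN in blue; the solid line is the median of all genes, -0.10, and the dotted lines are at 0.5 either way. ERRFI1 lies just above the upper line, EREG and EPGN just inside the lower line, and all 6 lie within the cloud of the other genes.

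Ligands and receptors outside the list of 10 were taken from a list of 6 relatives, all measured. EPGN, epigen, stood at 9.13 in the vector array and 8.68 in the fusion array. It was 1.37-fold lower, and 924 of the 7685 genes past the filter had a lower difference. NRG1, a neuregulin that binds ERBB3 and ERBB4, was at 4.56 and 4.40, and its difference of -0.16 was below the SD between features of a gene. NRG2 stood at 4.06 and 4.12, but its 2 features differed in sign, at -0.07 and 0.18. ERBB4, NRG3 and NRG4 lay below the filter. None of the 3 relatives past the filter differed by 0.5.

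EPGN and EREG are neighbours on chromosome 4, followed in order by AREG and then BTC. Their differences of -0.46 and -0.44 were nearly equal, while the gene before them, MTHFD2L, a folate pathway enzyme of mitochondria, was at 0.23 and the chemokine gene CXCL2 before that at 0.27. The other 2 flanking genes past the filter were lower, with the platelet chemokine gene PF4 at -0.20 and G3BP2, a stress granule gene, at -0.31. BTC and PARM1, next on the far side, lay below the filter. The flanking genes were picked by their place in the gene order, after the values of EPGN and EREG were known. The 284 genes of chromosome 4 past the filter had a median difference of -0.22, lower than the -0.10 of all genes, and the part of the chromosome in the values of EPGN and EREG was not tested. For the others, the chromosome medians were -0.05 on chromosome 1 (ERRFI1), -0.18 on chromosome 5 (HBEGF), -0.12 on chromosome 7 (EGFR) and -0.12 on chromosome 12 (ERBB3).

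**Figure D3:**
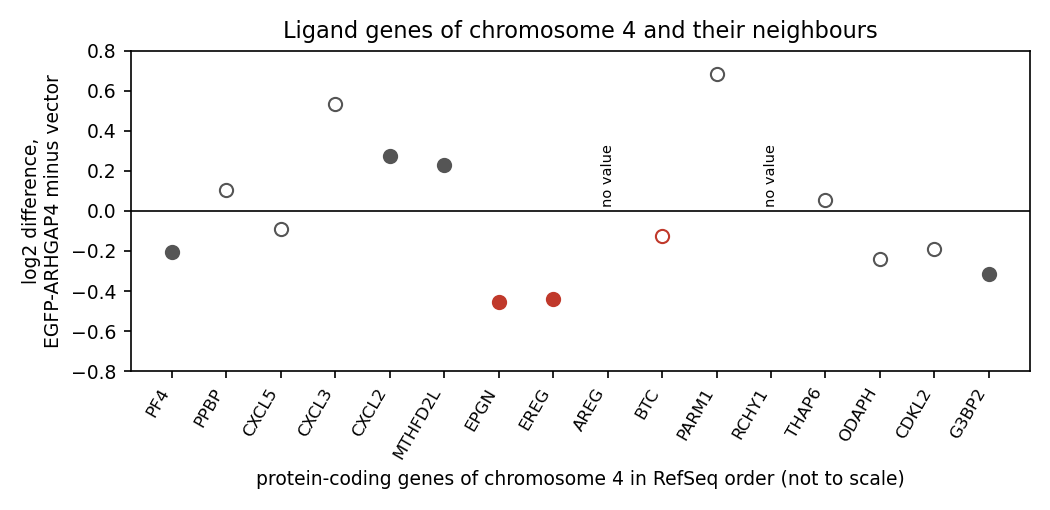
Log2 difference (EGFP-ARHGAP4 minus EGFP vector) of protein-coding genes around the ligand cluster of chromosome 4, in RefSeq gene order and not to scale, with ligand genes in red; filled circles passed the level filter and open circles did not. EPGN and EREG lie at -0.46 and -0.44, and MTHFD2L and CXCL2, the nearest genes on their left, at 0.23 and 0.27, while PF4 and G3BP2 at either end lie at -0.20 and -0.31; AREG and RCHY1 have no value here.

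Every difference of a family gene past the filter with a value other than 0 kept its sign under the other scalings, apart from that of NRG2, which turned to -0.07 when the feature with the highest level replaced the mean. The scalings raise most differences, since the median of genes past the filter moves from -0.10 as deposited to -0.01 after quantile normalization, -0.07 after centring and -0.002 after loess. The deposited differences of ERRFI1, HBEGF and EGFR were therefore the lowest of their ranges, and those of EREG and EPGN the farthest from 0.

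**Figure D4:**
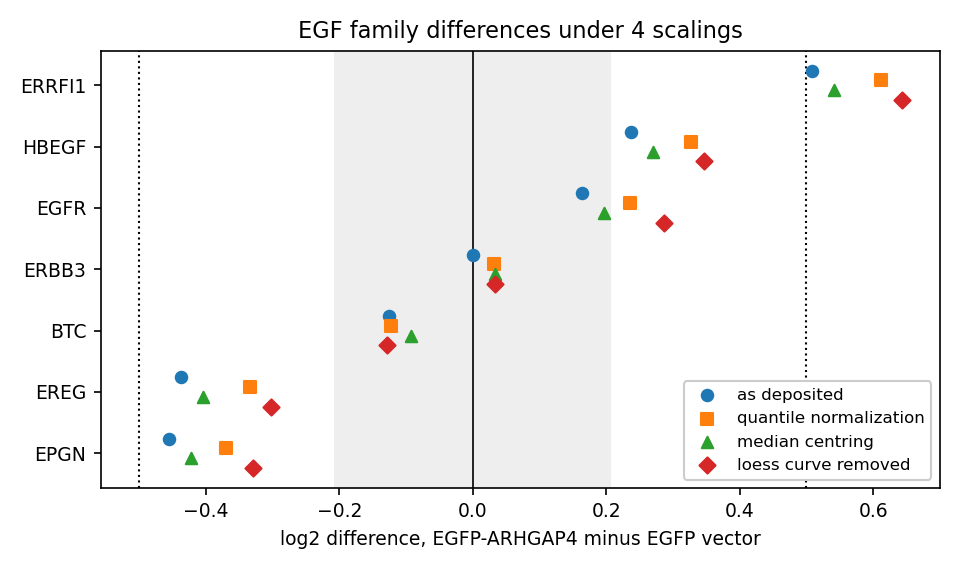
Log2 difference (EGFP-ARHGAP4 minus EGFP vector) of 7 family genes as deposited and under 3 other scalings; the grey band is the pooled SD of 0.21 between features of the same gene, and the dotted lines are at 0.5 either way. ERRFI1 lies above 0.5 in all 4, between 0.51 and 0.64, EREG and EPGN stay below the band, HBEGF above it, and EGFR leaves it under quantile normalization and loess.

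The wider pathway was described through lists of genes by their role, compiled by name; each covers its measured genes alone. Of 12 sheddase genes and their regulators 11 were measured and all 11 passed the filter. Their median difference was 0.24, 6 were above 0, and 2 were higher by at least 0.5 while none was lower by as much, beside 5.15% higher and 9.81% lower over all genes past the filter. ADAM8, a metalloprotease of inflamed tissue, stood at 4.90 in the vector array and 6.43 in the fusion array, and RHBDF2, the gene of iRhom2, which brings ADAM17 to the cell surface, at 5.55 and 6.26. ADAM17, the main sheddase of HBEGF and EREG, stood at 7.06 and 7.01, and its small difference of -0.05 turned to 0.06 after quantile normalization and 0.08 after loess. ADAM10, the main sheddase of EGF and BTC, was at 7.69 and 7.47; ADAM17 and ADAM10 are named for their role, after their values were seen. With the highest feature of each gene the median of the list was 0.14.

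ADAM8 lies on chromosome 10, where the 71 genes past the filter up to ZNF37A had a median of -0.82 and the 236 genes after it a median of 0.27. ADAM8, ADAM12, DUSP5, FGFR2 and SHOC2 belong to the second stretch and STAM to the first. The part of these regional differences in the values of the 6 genes was not tested, and no gene of the EGF receptor family past the filter lies on chromosome 10.

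Adaptors and effectors that bind the activated receptors showed no common direction, with 5 genes above 0 and 8 below it among the 13 past the filter. The median over the 17 measured of 20 was -0.05. NCK1, an SH2 and SH3 adaptor that links receptors to the actin cytoskeleton, was at 5.92 and 5.28. It was the single gene past 0.5 among the 13, lower by 0.64. Over all genes past the filter 5.15% were higher and 9.81% lower by at least 0.5. SHC1, which docks on phosphorylated EGFR and ERBB3, stood at 9.44 and 9.73, and GRB2, which brings SOS1 to the membrane, at 7.37 and 7.18, both named for their role.

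Genes of receptor trafficking and degradation were measured for 17 of 25, without the CBL genes. All 17 passed the filter and 11 had a difference below 0. The threshold of 0.5 was passed by 3 genes, each lower in the fusion array, beside 9.81% of all genes past the filter. After quantile normalization, centring and loess the count was 2 lower and 1 higher. The median of -0.09 was close to that of all genes and turned to 0.03 after loess. STAM, an adaptor of the endosomal sorting of ubiquitinated receptors, was at 7.24 and 6.19, in the first stretch of chromosome 10. UBASH3B, a phosphatase that opposes CBL, stood at 5.82 and 4.93, and CD2AP, an adaptor of receptor uptake, at 7.92 and 7.40. The CD2AP difference of -0.52 fell inside 0.5 after quantile normalization (-0.42), centring (-0.49) and loess (-0.38). EPN1, an endocytic adaptor, was at 0.47 as deposited and passed 0.5 under the same 3 scalings, at 0.58, 0.51 and 0.61. LRIG1, a membrane protein that promotes loss of ErbB receptors, stood at 5.77 and 5.78 and is named for its role.

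Neither cascade below the receptors held a gene past 0.5 as deposited, beside 5.15% higher and 9.81% lower over all genes past the filter. Lists of 8 and 6 measured genes are too small to be read against these shares. In the RAS to ERK list, 8 of 14 genes were measured, with a median of 0.004; the largest difference was that of NF1, a RAS inhibitor, at 7.19 and 7.57, whose difference of 0.38 became 0.52 after loess and so passed 0.5 there. In the PI3K to AKT list, 6 of 18 were measured, with a median of 0.03. The gene with the largest difference there, PDPK1, rested on 2 features that disagreed, at -0.80 and 0.17, so its mean of -0.32 has no settled direction. AKT1 also rested on 2 features of opposite sign, at 0.28 and -0.22.

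Genes known to be induced by ERK, to which ERRFI1 also belongs by its regulation, were measured for 21 of 27, all past the filter. The fusion array was higher by 0.5 or more for 5 of them and lower by as much for none, with 13 above 0, 7 below it and a median of 0.07. Over all genes past the filter 5.15% were higher and 9.81% lower by as much. The count of 5 became 6 after quantile normalization, centring and loess and 4 with the highest features or without chromosome 10. The gene added under the 3 scalings was JUN, at 5.87 and 6.34, named after its values were seen. Its difference of 0.47 became 0.57, 0.51 and 0.58. The count fell to 1 with the level filter at the 0.75 quantile. EGR3, a zinc finger transcription factor, was at 3.42 and 4.23, below the filter in the vector array. The cytokine gene LIF stood at 4.10 and 4.78, the gene of the phosphatase DUSP1 at 9.75 and 10.30, and FOS at 4.82 and 5.35. The 2 features of FOS differed by 0.79 and 0.27. DUSP5, the remaining gene of the 5, was at 0.53 and fell to 0.48 with its highest feature alone. The other genes of the same list stayed inside 0.5. Among them DUSP6, an ERK phosphatase often read as a measure of ERK activity, was at 8.22 and 8.35. SPRY4, an inhibitor of RAS activation, was at 6.70 and 6.77. The AP-1 subunit gene FOSL1 was at 9.05 and 8.70 and the immediate early gene EGR1 at 6.43 and 6.33, the last with a sign that turned after loess. These 4 were picked after their values were seen.

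Other receptor tyrosine kinases served as a comparison for the ErbB receptors. Of 31 genes 28 were measured and 17 passed the filter, of which 3 were higher and 1 lower by at least 0.5, beside 5.15% and 9.81% of all genes past the filter. The count of 3 became 4 after quantile normalization and loess and 2 with the highest features or without chromosome 10. The gene added was DDR1, at 6.65 and 7.07, well above the filter and named after its values were seen. Its difference of 0.42 became 0.52 after quantile normalization and 0.55 after loess. With the level filter at the 0.75 quantile the counts higher and lower both became 0. The median over the measured genes was 0.002, a sign that turned after loess. KDR, a receptor of vascular endothelial growth factor, was at 3.36 and 5.63, INSR, the insulin receptor, at 4.76 and 3.97, FGFR2 at 3.37 and 4.02 and EPHA1 at 4.26 and 4.84. These 4, unlike DDR1, had a value below the filter in 1 of the arrays or lay within 1 log2 unit above it. MET, the receptor of hepatocyte growth factor, stood at 8.48 and 8.30 and is named for its role. The distance between the ErbB receptors and these receptors was not tested, since there is 1 array per line.

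**Figure D5:**
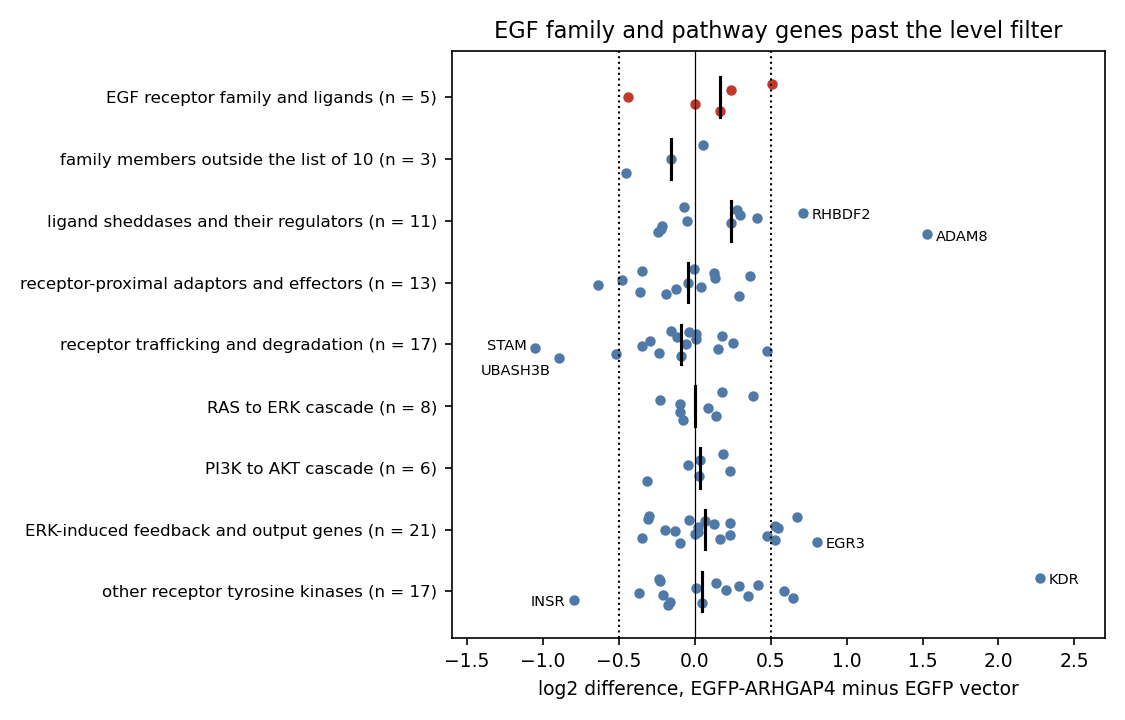
Log2 difference (EGFP-ARHGAP4 minus EGFP vector) of the genes past the level filter, 1 point per gene, for the EGF receptor family (red) and 8 lists of related genes (blue), with n the number of genes, a short line at each median over the genes shown and dotted lines at 0.5 either way. Genes beyond 0.7 are named; most points of each list lie between the dotted lines, and of the family ERRFI1 alone lies past one.

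For the 2 arrays as a whole, ARHGAP4 stood at 4.49 in the vector array and 6.68 in the fusion array, in the direction of the labels. Of 14 mammary epithelial markers 9 were measured and 8 passed the filter, with KRT14 at -2.25, CLDN7 at 1.22 and EPCAM at 1.20. The others past the filter were CLDN1 at 0.97, KRT8 at 0.36, KRT18 at 0.08, KRT5 at 0.02 and DSP at -0.26. The 2 features of KRT18 differed in sign, at -0.06 and 0.22. The markers of other cell types that differed beside the family genes were LAPTM5 at 2.05 and KDR at 2.27. Of the 8 immune markers 5 were measured, with summed log2 values of 25.2 and 27.4, and most of the distance between these sums came from LAPTM5. Of the 5, 3 were higher: LAPTM5, CSF1R at 0.50 and CD68 at 0.48, while CD14 and TYROBP were at -0.35 and -0.41. CSF1R lay below the filter, and of the 4 immune markers past it 2 were higher and 2 lower. Of the 7 endothelial markers 4 were measured, with sums of 14.3 and 16.4, and apart from KDR they stood at 0.11 for VWF, 0.02 for CLDN5 and -0.31 for ESAM. VWF and ESAM lay below the filter. Of the 8 fibroblast markers 3 were measured and none passed the filter. The part of other cell types in the family's differences was not tested, and fewer cells of a type cannot be told apart from less RNA per cell.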

How the data were processed

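RNA of 2 MCF-10A lines was measured on 1 Affymetrix whole-transcript array each, after PureLink extraction and GeneChip amplification and labelling, per the labels' protocols. The deposited table holds 1 normalized log2 value per feature and array for 44629 features. Software, summarisation, normalization and genome build were not given in the sources used here. That the scale is log2 was read from the values, whose highest was 12.8. Samples were grouped by their genotype label. Names came from the platform annotation, which gave 15835 features 1 symbol, updated by Entrez identifier through the GRCh38.p14 RefSeq table, and features of a gene were averaged. Differences are EGFP-ARHGAP4 minus EGFP vector. Calls were counted at 0.5 and 1 among genes whose higher value reached 4.02. The number of arrays limits the precision.

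Alternatives were quantile normalization, subtraction of the median difference (centring), subtraction of a loess curve with a span of 0.3, the feature with the highest level, no level filter, a filter at the 0.75 quantile, a threshold of 1.5-fold and a run without chromosome 10, which was chosen after seeing the data. The family and the lists were chosen with earlier results of these data known. Named genes were every measured member, up to 4 genes past 0.5 of each list or else the gene with the largest difference, and the 3 genes nearest to the member with the largest difference; others are said to be named after their values were seen or for their role, which amounts to the same. Calculations were tested on simulated data. Analyses ran in Python 3.11.15 (numpy 2.4.6, pandas 2.3.3, statsmodels 0.14.6) and figures were drawn with matplotlib 3.10.9.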

Additional observations from a re-analysis of the deposited data

How the results depend on the processing

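The differences of the 7 measured genes moved by less than 0.21, the SD between features of a gene, under quantile normalization, centring, loess and the highest feature, and so did their median, which was 0 as deposited. EGF, equal in both arrays, took a small value of either sign, from -0.02 to 0.03. At a threshold of 1.5-fold the count of family genes higher fell from 1 to 0. Over all pathway lists, of 96 genes past the filter, 10 were higher and 5 lower by 0.5, and 2 were higher and 1 lower by 1. With the level filter at the 0.75 quantile these became 3 higher and 3 lower by 0.5, and 1 higher by 1. The count lower by 1 became 0 after quantile normalization, after loess and without chromosome 10, and the count higher by 1 became 1 without chromosome 10. Of all 7685 genes past the filter, 396 (5.15%) were higher and 754 (9.81%) lower by 0.5. By 1, 77 were higher and 61 lower, 1.80% either way. The balance at 0.5 turned to 554 higher and 514 lower after quantile normalization and to 560 and 497 after loess. The 396 became 629 without a level filter and 185 at the 0.75 quantile, the 754 became 408 at the 0.75 quantile and 495 at 1.5-fold, the 77 became 39 and the 61 became 35 at the 0.75 quantile, and the 61 became 38 without chromosome 10. No called difference of a named gene past 0.5 changed its sign. No paired analysis was possible because each line has 1 array. The number of arrays and, for BTC, EGF and ERBB4, a signal below the filter limit what these values can show.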
